A study of Bos taurus with 8 samples.

Results

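The smooth muscle and mesenchymal cells (SMMCs) of freshly dissociated bovine muscle were divided by CNN1, the gene for calponin 1, an actin-binding protein of contractile smooth muscle. A cell with at least 1 unique molecular identifier (UMI, a tag that marks 1 captured mRNA molecule) of CNN1 was called CNN1-positive, and a cell with 0 was called CNN1-negative. Among 4395 muscle cells, 548 carried the authors' SMMC label, of which 169 were CNN1-positive and 379 were CNN1-negative; the whole series holds 36129 cells. The cells came from the semitendinosus muscle of 10 Belgian Blue cattle, calves and adults, dissociated with collagenase and pooled unsorted into 1 10x Genomics library (Timepoint 1). No cell had been cultured or treated, and both sides of the split came from the same animals and the same library. For comparison, the same split was made at passage 0 (Timepoint 2), when unsorted cells had grown on fibronectin for 72 h without serum by the protocol, although the labels of that timepoint also name SCs and FAPs as source. Each animal is called a donor, and counts were summed per donor and side, so that donors and not cells were the replicates.

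Mural cells wrap the endothelium of blood vessels. Smooth muscle cells of arteries and arterioles carry a dense actin and myosin apparatus and contract in rings, whereas pericytes lie singly along capillaries within the basement membrane that they share with the endothelium. Pericytes are known for the signalling regulator RGS5, for an ATP-sensitive potassium channel made of the pore KCNJ8 and the regulatory subunit ABCC9, and for the receptors PDGFRB and NOTCH3. Calponin 1 is among the late markers of a contractile smooth muscle cell.

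The cells labelled SMMC carried mural markers. In counts per 1000000 UMIs (CPM), ACTA2 stood at 8147 in SMMCs against 58.9 in all other muscle cells, RGS5 at 1535 against 13.8, MYH11 at 881 against 2.47, TAGLN at 1001 against 5.94 and NOTCH3 at 479 against 18.4. PDGFRB was the weakest of them, at 76.4 against 9.25. No UMI of PTPRC (leukocytes) was found in the 548 cells, which allows a share of up to 0.547% of cells with a UMI. Other markers were present at low levels: MYF5 (satellite cells) had 15 UMIs, in 0.365% of SMMCs, CD14 (macrophages) 2 and CD3E (T cells) 2. The endothelial markers PECAM1 and CDH5 were seen in 5.84 and 5.47% of SMMCs, at 37.4 and 27.2 CPM against 208 and 159 in other cells. DCN (FAPs) was seen in 19.9% and ACTA1 (muscle fibres) in 27.9% of SMMCs, at 167 and 110 CPM against 8028 and 561 in other cells. Of the 4395 muscle barcodes, 33 recurred in another library; 2 were SMMCs, and neither belonged to the same donor there.

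CNN1 chose the sides, so its own values are a description. CNN1-positive cells held a median of 4 CNN1 UMIs, up to 115 in 1 cell. The share of CNN1-positive cells was 30.6% ± 6.68 (SD, n = 10 donors) and ranged from 18.8% in donor 2 to 40% in donor 8. All 10 donors had at least 5 cells on both sides, from 7 to 47 CNN1-positive and from 15 to 98 CNN1-negative cells. Outside SMMCs a CNN1 UMI was rare. It was found in 12 of 1166 vascular endothelial cells (VECs; 1.03%, exact 95% interval 0.533 to 1.79%), whose median of 2778.5 UMIs was close to the 2792 of SMMCs. In fibro-adipogenic progenitors (FAPs) it was found in 7 of 1231 cells, and in satellite cells (SCs) in 0 of 647 cells, which by the limit of 3 counts allows a share of up to 0.464% (exact 95% upper bound 0.569%). These intervals cover counting error only.

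The sides differed in depth. The median UMIs per CNN1-negative cell had a lowest donor value of 1939, a median of 2260 and a highest of 2992. For CNN1-positive cells these values were 4485, 5467 and 6483. The donors did not overlap, and the ratio of the sides ran from 1.74 in donor 5 to 3.03 in donor 9. A deeper cell is more likely to show any given UMI, so no test was made of this difference. Among the fifth of SMMCs with the fewest UMIs 3.64% had a CNN1 UMI, and among the fifth with the most 80.9% did. The gradient remained when every cell was thinned at random to 2000 UMIs: 10.9% of the cells that had held from 2000 to under 3000 UMIs still showed CNN1, 32.8% of those from 3000 to under 5000 and 65.3% of those with 5000 or more. Thinning left out 6 CNN1-positive and 134 CNN1-negative cells below 2000 UMIs, and 25 cells lost their CNN1 UMIs and were counted as CNN1-negative, which left 138 and 270 cells. It gave a mean share of 34.7% ± 7.44 (SD, n = 10).

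**Figure D1:**
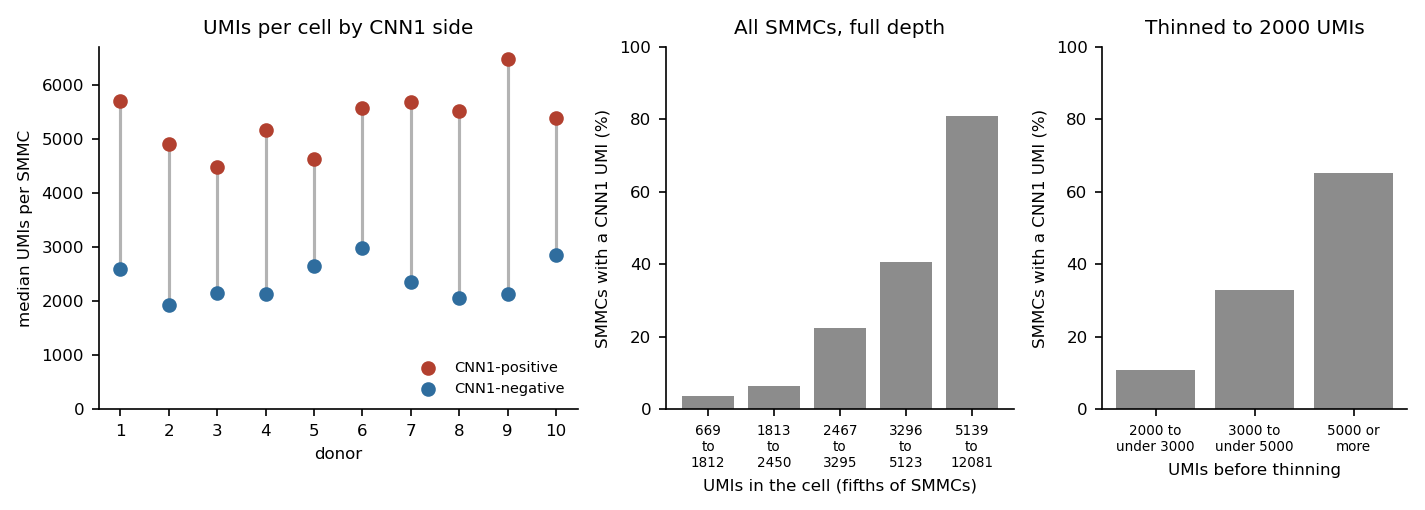
Depth and the CNN1 split in muscle SMMCs. Left, median UMIs per cell (y axis) for each of the 10 donors (x axis), CNN1-positive in red and CNN1-negative in blue. Middle, percent of SMMCs with a CNN1 UMI in 5 classes of cells by UMI total, rising from 3.64 to 80.9%. Right, the same percent after thinning each cell to 2000 UMIs, by the UMIs held before thinning, rising from 10.9 to 65.3%. In every donor the red point lies above the blue one.

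Of 978 genes tested, CNN1 left out, 205 were higher and 285 were lower in CNN1-positive SMMCs at an adjusted p below 0.05 (edgeR quasi-likelihood F test with donor as a block, Benjamini-Hochberg adjustment). That is 21% of the genes tested in the higher and 29.1% in the lower direction, and the counts below are read against these shares. With an added absolute log2 fold change (log2FC) above 1, the fold limit of the study, 55 genes were higher (5.62%) and 102 were lower (10.4%). The study applied that limit to single cells, with a further limit on the share of cells expressing a gene that was not used here. Both directions together made 490 genes (50.1%), or 157 with the fold limit (16.1%). In 120 of the 978 genes the 10 donors of one side did not overlap those of the other, 66 higher and 54 lower in CNN1-positive cells. Genes said below not to overlap in muscle are among these 120. Fewer genes were tested and called in cells of like depth. In cells paired within a donor to within a ratio of 1.2 in UMIs, which left 90 cells a side in 7 donors, 55 of 505 genes were higher (10.9%) and 71 were lower (14.1%). In cells thinned to 2000 UMIs, 116 of 436 genes were higher (26.6%) and 110 were lower (25.2%). Without the filter on low counts, 497 of 13048 genes were higher (3.81%) and 512 were lower (3.92%), and counts made without the filter are read against these shares. Values below are CPM per donor, scaled by TMM factors unless called unscaled, with the lowest, the median and the highest of 10 donors.

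The contractile apparatus was higher in CNN1-positive cells. Of 46 genes listed, CNN1 left out, 44 were annotated, 30 passed the filter for low counts, 20 rose and 4 fell, and their median log2FC was 1.25 beside -0.10 over all genes tested. The filter lets through a gene that is abundant on one side only; over all 44 genes, without it, the median was 1.47 beside -0.14. In the cells paired on UMIs 14 of 24 rose and 2 fell, with a median of 0.78 beside 0.02. ACTA2, smooth muscle alpha actin, had 2557, 3514 and 4818 CPM in CNN1-negative cells. In CNN1-positive cells it had 6938, 11239 and 27712 CPM. The lowest CNN1-positive donor lay above the highest CNN1-negative donor, and the log2FC was 1.78 (SE 0.20, edgeR adjusted p = 1.43e-05). TAGLN, the actin-binding protein transgelin, went from 469, 662 and 876 CPM to 1015, 1368 and 1871 CPM (log2FC 1.09, SE 0.12). Here too the donors did not overlap.

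MYH11, the myosin heavy chain of smooth muscle, stood at 0, 48.6 and 663 CPM in CNN1-negative cells and at 481, 1681 and 4140 CPM in CNN1-positive cells. It was higher in 10 of 10 donors (log2FC 3.79, SE 0.60, edgeR adjusted p = 0.00032), although the range of the sides overlapped through donor 2, with 663 CPM in its CNN1-negative cells. MYLK, the kinase that activates myosin by phosphorylating its regulatory light chain, had 182, 308 and 376 CPM against 897, 1081 and 1732 CPM (log2FC 1.94, SE 0.15). Of the light chains, MYL6 rose by a log2FC of 1.10 (SE 0.08) and MYL9 by 1.36 (SE 0.14). In thinned cells a UMI of MYH11 was seen in 63.8% of CNN1-positive cells, 9.63% of CNN1-negative cells and 0.482% of 830 VECs; at full depth the shares of the sides were 69.8 and 5.01%. PPP1R14A, an inhibitor of the phosphatase that reverses the kinase, rose by 0.86 (SE 0.09).

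DES, the intermediate filament protein desmin, had 0, 63.6 and 112 CPM in CNN1-negative cells and 221, 1547 and 5213 CPM in CNN1-positive cells (log2FC 4.23, SE 0.46). ACTG2, the enteric smooth muscle actin, had 0, 33.2 and 142 CPM against 333, 1553 and 3897 CPM (log2FC 4.54, SE 0.27, edgeR adjusted p = 4.03e-09). Neither gene overlapped between the sides, and both spread widely within the CNN1-positive side. Actins share most of their coding sequence, and how well reads of ACTA2 and ACTG2 were told apart was not tested.

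Of the actin regulators, DSTN (destrin, which severs and depolymerises actin) was the gene with the smallest p in the higher direction. It had 309, 445 and 685 CPM against 1885, 3809 and 6582 CPM (log2FC 2.93, SE 0.16, edgeR adjusted p = 3.36e-09). The tropomyosins TPM1 and TPM2, which lie along the filament, rose by 2.19 (SE 0.13) and 1.81 (SE 0.17). LMOD1, leiomodin 1, which nucleates filaments in smooth muscle, had 26.1, 107 and 281 CPM against 335, 392 and 624 CPM (log2FC 1.82, SE 0.19). None of these 4 genes overlapped between the sides. CSRP1, a LIM protein of the cytoskeleton, rose by 1.29 (SE 0.12), NEXN (nexilin) by 2.95, PDLIM3 by 2.01, ACTN1 (alpha-actinin) by 1.50 and FLNA (filamin A) by 1.21. CRYAB, a small heat shock protein, rose by 3.56 (SE 0.59) and was uneven over donors, at 305, 460 and 10057 CPM in CNN1-positive cells.

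The 4 members of the contractile list that fell were named after their values were seen. They were CNN3 (log2FC -0.90), a calponin that is not confined to smooth muscle, VCL (vinculin, -0.84) and PGM5 (-1.11), both found at adhesion sites, and HSPB1 (-0.36), a small heat shock protein. HSPB1 and CNN3 lost their calls in the cells paired on UMIs. Of the 6 members that passed no threshold, CALD1 (caldesmon) had 2727 and 2864 CPM at the median of the sides (log2FC 0.18, SE 0.11, edgeR adjusted p = 0.206).

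**Figure D2:**
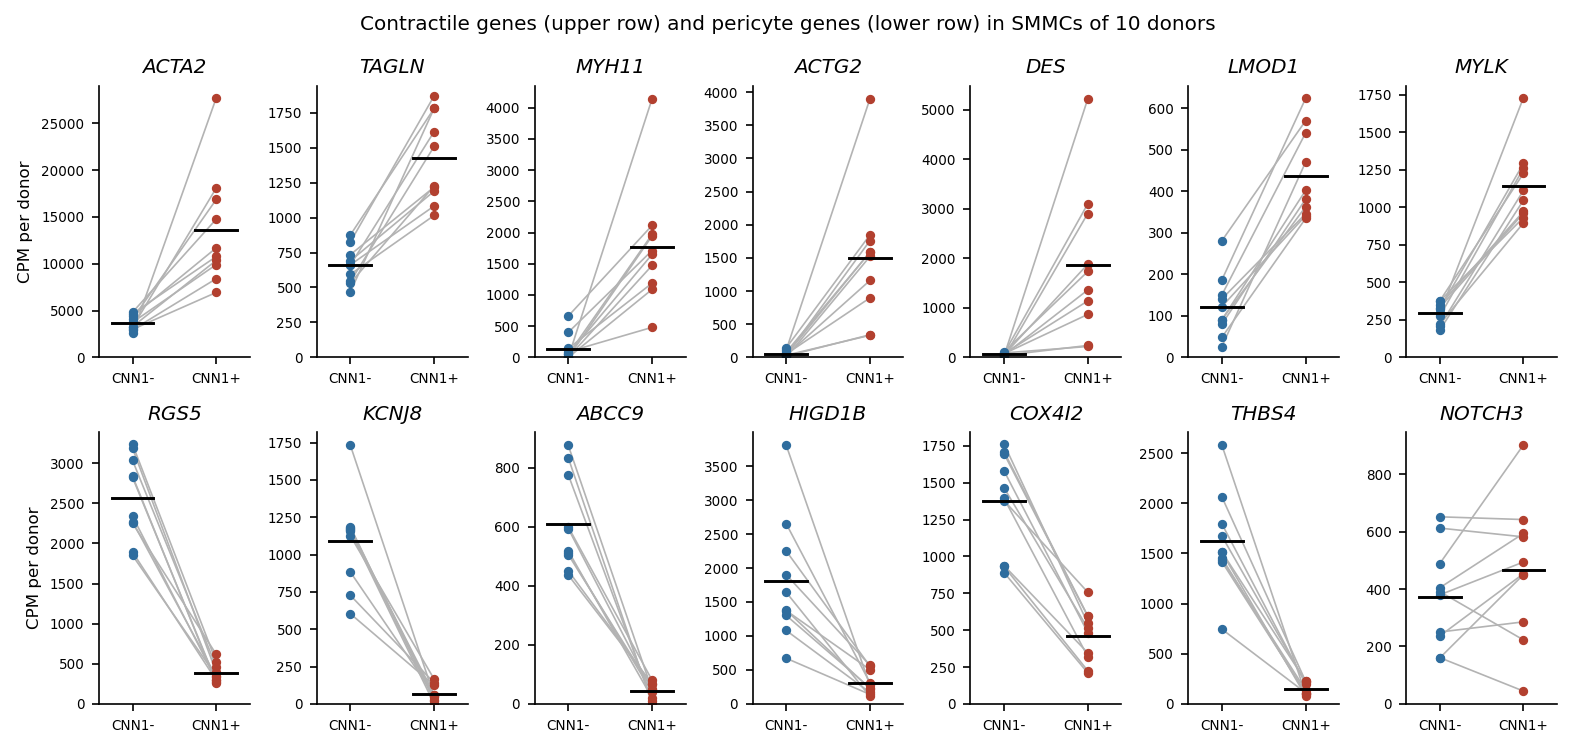
CPM per donor (y axis, starting at 0 in every panel) in CNN1-negative (blue) and CNN1-positive (red) muscle SMMCs. A grey line joins the sides of 1 donor, and the black bar is the mean of 10 donors. The 7 genes of the upper row rise in 10 of 10 donors, the first 6 genes of the lower row fall in 10 of 10, and NOTCH3 rises in 6 of 10.

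The pericyte genes were lower in CNN1-positive cells. Of 47 genes listed, 45 were annotated, 21 passed the filter, 0 rose and 20 fell, with a median log2FC of -1.41. Without the filter 1 of 43 rose and 25 fell, beside 3.81 and 3.92% of all genes (median -1.03). The list, like the others, was chosen with earlier results of these data known, so its counts are a description. In the cells paired on UMIs 0 of 15 rose and 9 fell (median -0.99 beside 0.02). The summed endothelial markers given below were lower in the same cells. Without cells with a UMI of PECAM1, CDH5, PTPRC or PDGFRA 20 of 21 pericyte genes fell. A cell with endothelial RNA but no UMI of these genes stays in, so the part of endothelial RNA was not tested. RGS5, which shortens signals of G protein-coupled receptors, had 1851, 2581 and 3235 CPM in CNN1-negative cells. In CNN1-positive cells it had 259, 340 and 616 CPM. The donors did not overlap, and the log2FC of -2.78 (SE 0.13, edgeR adjusted p = 5.88e-10) had the smallest p of all genes tested.

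The members of the list that did not pass the filter, PDGFRB among them, were too sparse for the test. PDGFRB, the receptor that recruits mural cells, had 40.3, 88.5 and 171 unscaled CPM in CNN1-negative and 0, 29 and 52.1 in CNN1-positive cells, from 119 and 30 UMIs in all.

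Both subunits of the potassium channel fell. KCNJ8, the pore, had 604, 1160 and 1732 CPM against 0, 56.1 and 165 CPM (log2FC -3.73, SE 0.35, edgeR adjusted p = 1.23e-06). ABCC9, the regulatory subunit, had 437, 556 and 876 CPM against 0, 46.3 and 80.6 CPM (log2FC -3.64, SE 0.27). No donor overlapped for either gene. In thinned cells 77.8% of 270 CNN1-negative cells and 12.3% of 138 CNN1-positive cells had a UMI of at least 1 of the 2 genes. Per donor that share was 63.2, 80.3 and 100% among CNN1-negative cells and 0, 12.5 and 25% among CNN1-positive cells, again without overlap. In VECs thinned to the same depth KCNJ8 was seen in 0.602% and ABCC9 in 0.241% of 830 cells. At full depth 20.7% of CNN1-positive and 73.6% of CNN1-negative cells showed KCNJ8. The 60 remaining CNN1-negative cells (22.2%) showed neither CNN1 nor the channel at this depth.

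Of the other pericyte genes, HIGD1B, a mitochondrial protein of the hypoxia-inducible domain family, had 672, 1511 and 3809 CPM against 112, 257 and 569 CPM (log2FC -2.52, SE 0.21). COX4I2, an isoform of cytochrome c oxidase subunit 4, had 891, 1431 and 1763 CPM against 210, 498 and 758 CPM (log2FC -1.60, SE 0.13). The donors overlapped for neither. GJA4, a gap junction protein (log2FC -2.25, SE 0.17), and MFGE8, a secreted glycoprotein (-1.32, SE 0.10), fell too. THBS4, a matricellular thrombospondin, fell with a log2FC of -3.35 (SE 0.18). In the cells paired on UMIs these genes kept their calls with log2FC closer to 0: HIGD1B -1.13, COX4I2 -1.06, GJA4 -1.12, MFGE8 -0.56 and THBS4 -2.04.

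Among the 21 pericyte genes that passed the filter, NOTCH3 alone was not called. This receptor, which responds to ligands on endothelium and on neighbouring mural cells, had 160, 385 and 651 CPM in CNN1-negative and 44.6, 474 and 902 CPM in CNN1-positive cells. The sides overlapped over most of their range, and the log2FC of 0.32 (SE 0.20, edgeR adjusted p = 0.195) did not pass the threshold. Of 20 genes of Notch signalling, 4 passed the filter. The ligand JAG1 rose (log2FC 0.55, SE 0.20, edgeR adjusted p = 0.0278), and the target genes HES1 (-1.002, SE 0.19) and HEYL (-1.12, SE 0.22) fell. The JAG1 call was lost without donor 7, without the donor block and in depth-matched cells. The HES1 call was lost in thinned cells (log2FC -0.64), where HEYL was too sparse for the test.

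Genes of vessel tone were measured mostly below the limit of the test: of 55 genes of channels, calcium handling, cyclic GMP and vasoactive receptors, 11 passed the filter, 0 rose and 8 fell (median log2FC -0.81). Without the filter 6 of 50 rose and 12 fell, beside 3.81 and 3.92% of all genes (median -0.18 beside -0.14), and in the cells paired on UMIs 0 of 8 rose and 2 fell. Of the 8 that fell with the filter, RGS5, KCNJ8, ABCC9, GUCY1A1, GUCY1B1 and EDNRA are also in the pericyte list, while AGTR1 and RHOA are not. Besides RGS5 and the channel, AGTR1, the angiotensin II receptor, had 257, 726 and 963 CPM against 0, 68.8 and 241 CPM. Its log2FC was -3.24 (SE 0.32, edgeR adjusted p = 1.31e-06), and the donors did not overlap. GUCY1A1 and GUCY1B1, the subunits of the nitric oxide receptor, fell by 0.75 (SE 0.15) and 0.90 (SE 0.12), and EDNRA, an endothelin receptor, by 0.81 (SE 0.17). PLN, which restrains the calcium pump of the sarcoplasmic reticulum, had 455 and 631 CPM at the medians and passed no threshold (log2FC 0.35, SE 0.21). GUCY1A1 and GUCY1B1 were among the genes of this list that were not called in cells paired within a ratio of 1.2 in UMIs. Of 30 genes of PDGF, TGF-beta and BMP signalling 2 passed the filter: the growth factor BMP5 fell (log2FC -1.96, SE 0.19; -1.19 in the cells paired on UMIs) and ID3, a BMP target, did not pass the threshold (0.01, SE 0.35).

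Matrix genes were called in both directions. Of 45 interstitial, elastic and matricellular genes 17 passed the filter, 6 rose and 4 fell, and without the filter 14 of 45 rose and 5 fell. TNC, tenascin-C, was found as 357 UMIs in CNN1-positive and as 5 UMIs in CNN1-negative cells, at 195, 278 and 639 CPM against 0, 0 and 41.8 CPM (log2FC 5.96, SE 0.42, edgeR adjusted p = 2.42e-08). Its log2FC rests on those 5 UMIs, which all came from donor 7. Without that donor it was 8.24, set against CNN1-negative cells with no UMI of TNC, so its size means little. Without donor 4 it was 5.36. THBS1, thrombospondin 1, had 337, 1026 and 3360 CPM against 0, 13.4 and 206 CPM (log2FC 4.44, SE 0.57; 5.33 without donor 10 and 2.53 in the cells paired on UMIs).

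FN1, fibronectin, through which cells bind the matrix, had 572, 1581 and 2669 CPM against 0, 132 and 640 CPM (log2FC 3.15, SE 0.40; 1.79 in the cells paired on UMIs). ELN, elastin, the elastic protein of artery walls, had 104, 316 and 762 CPM against 0, 17.1 and 231 CPM (log2FC 3.08, SE 0.33). Both were higher in 10 of 10 donors, with overlap of the sides. A UMI of ELN was seen in 34.1% of thinned CNN1-positive and 7.04% of thinned CNN1-negative cells, and in 12.8% of thinned VECs, so that the share in CNN1-negative cells was below that in another cell type; at full depth the sides were at 48.5 and 5.01%. BGN (biglycan, 1.70) and CCN3 (0.72) also rose, and THBS4, COL5A3 (-2.54), COL5A1 (-0.96) and ASPN (asporin, -0.997) fell. In thinned cells 2 of 11 matrix genes rose and 2 fell.

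Of 23 basement membrane genes 8 passed the filter, 0 rose and 5 fell. Without the filter 3 of 20 rose and 7 fell, and with at least 10 cells on both sides 3 of 10 fell, beside 18.6% of all genes. The endothelial markers were lower on the same side, and without cells with a UMI of PECAM1, CDH5, PTPRC or PDGFRA 5 of 8 fell. Here too the part of endothelial RNA was not tested. COL4A1, a chain of collagen IV, had 1797, 2599 and 3311 CPM against 511, 684 and 1470 CPM (log2FC -1.68, SE 0.16, edgeR adjusted p = 7.66e-07), without overlap. COL4A2, its partner chain, fell by 1.08 (SE 0.30), SPARC, a collagen-binding glycoprotein, by 1.02 (SE 0.14), SPARCL1 by 0.55 (SE 0.14) and the protease inhibitor TIMP3 by 0.76 (SE 0.25). The TIMP3 call was lost without donor 3, 6, 8, 9 or 10, and those of TIMP3 and SPARCL1 with at least 10 cells on both sides. SPARCL1 also lost its call in the cells paired on UMIs (log2FC -0.17), where 0 of 5 genes of the list rose and 3 fell. The laminin chains LAMA4, LAMB2 and LAMC1 passed no threshold (log2FC 0.36, 0.42 and 0.29). Of 40 adhesion genes 16 passed the filter, 3 rose and 5 fell, the kindlin FERMT2 (-1.20) and the caveolar proteins CAV1 (-0.63) and CAVIN3 (1.03) among them.

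**Figure D3:**
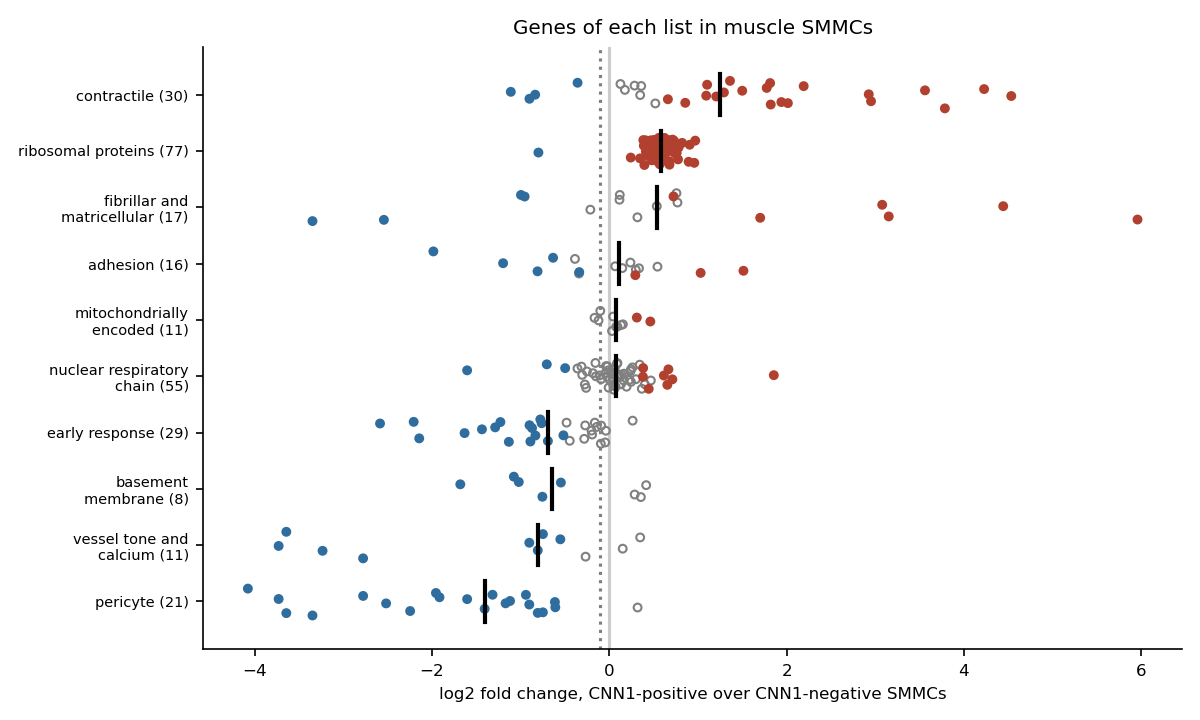
Log2 fold change (x axis) of every tested gene in 10 lists (y axis, number of genes tested in parentheses). Some genes stand in several lists, such as RGS5 in the pericyte and the vessel tone list. Filled points passed the threshold, red for higher and blue for lower in CNN1-positive SMMCs, open points did not; black bars are list medians and the dotted line is the median of all 978 genes. The contractile median is at 1.25, the ribosomal protein median at 0.58 and the pericyte median at -1.41.

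Ribosomal protein genes rose together. Of 82 genes found by symbol, 77 passed the filter, 75 rose and 1, RPL22L1, fell (-0.80); the median log2FC was 0.58. RPLP1, an acidic protein of the ribosomal stalk, had 3617, 4018 and 4875 CPM against 5915, 8120 and 11135 CPM (log2FC 0.97, SE 0.10, edgeR adjusted p = 1e-06). The donors of the sides did not overlap. Many ribosomal protein genes have near-identical copies in the genome, so single members are uncertain. In thinned cells 66 of 75 rose (median 0.46), and in cells paired within a ratio of 1.2 in UMIs 21 of 75 rose (median 0.31) and 0 fell. The pairs hold fewer cells and donors, and the part of that in the lower count was not tested.

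Early response genes, which are switched on within minutes by stress and tissue dissociation, fell more often than they rose. Of 50 genes listed 29 passed the filter, 0 rose and 16 fell (median log2FC -0.69). Without the filter 2 of 47 rose and 14 fell (median -0.28), and with at least 10 cells on both sides the median of 35 genes was -0.35. It was -0.44 without cells with a marker of another type and -0.42 without donor 6, with 16 genes lower in both. JUN, a subunit of the AP-1 factor, had 4883, 8727 and 16376 CPM against 2364, 3656 and 4944 CPM (log2FC -1.44, SE 0.20, edgeR adjusted p = 8.5e-05), and the sides overlapped slightly. FOS, its partner, had 1598, 3253 and 6559 CPM against 1386, 1681 and 2988 CPM (log2FC -0.83, SE 0.15), with wide overlap. HSPA8, a chaperone, fell by 1.23 (SE 0.19), JUND by 0.89 (SE 0.14) and BTG2 by 1.29 (SE 0.20). In cells paired within a ratio of 1.2 in UMIs 9 of 24 fell (median -0.77), and FOS lost its call.

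The 13 mitochondrially encoded protein genes took 4.36% ± 0.581 of UMIs in CNN1-positive and 4.22% ± 0.342 in CNN1-negative cells (SD, n = 10 donors). CNN1-positive cells had the higher percent in 5 of 10 donors, and the mean difference of 0.144 percentage points did not pass an exact 2-sided sign-flip permutation test over donors (p = 0.418, smallest possible 0.00195). Of the 11 of these genes that passed the filter, ND4 (log2FC 0.31) and ND5 (0.46), both subunits of complex I, rose, and both lost their calls in thinned and in depth-matched cells. ND4 was at 0.17 in thinned cells, and in the cells paired on UMIs ND4 and ND5 were at 0.12 and 0.22. Of 66 nuclear genes of the respiratory chain 55 passed the filter, 8 rose and 3 fell (median 0.07). In thinned cells 1 of 24 rose and 2 fell, and in the cells paired on UMIs 0 of 31 rose and 1 fell. NDUFA4 (log2FC 1.86, SE 0.33) and COX4I2 were at the ends of this list, and 44 of the 55 passed no threshold.

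Markers of other cells were sparse on both sides but not equal. The 18 endothelial genes summed to 432, 1212 and 1826 unscaled CPM in CNN1-negative cells. In CNN1-positive cells they summed to 177, 418 and 850, lower in 10 of 10 donors; TEK was at 0 on the CNN1-positive side. No member passed the filter, and without it 1 of 18 rose and 11 fell (median log2FC -1.76). A UMI of PECAM1, CDH5, PTPRC or PDGFRA was present in 39 CNN1-negative (10.3%) and 11 CNN1-positive cells (6.51%). Without those cells 218 genes were higher and 263 lower. The 21 muscle fibre genes summed to 541, 744 and 2087 against 193, 481 and 659 unscaled CPM. The 14 FAP genes summed to 230, 436 and 2707 against 344, 855 and 1455, higher in CNN1-positive cells in 9 of 10 donors, and 1 of them, CCDC80, rose (log2FC 1.35, SE 0.28). CCDC80 gave 483 of the 741 UMIs on the positive and 187 of the 624 on the negative side; the 13 other genes, a sum made after the values were seen, had 258 and 437 UMIs and were higher in CNN1-positive cells in 5 of 10 donors.

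The 14 macrophage genes summed to medians of 192 and 67.5 unscaled CPM in CNN1-negative and CNN1-positive cells, with PTPRC at 0 on both sides and CSF1R and CD14 at 0 on the positive side. CD74 alone gave 178 of the 222 UMIs on the negative and 54 of the 88 on the positive side. The 8 glial genes summed to 129 and 43.6, with SOX10 at 0 on the positive side, and S100B gave most of their UMIs. Lymphocyte, satellite cell, lymphatic and red blood cell genes had medians below 10 on both sides, and tenocyte genes had 50.4 and 51.6. Leaving out cells with a UMI of PECAM1, CDH5, PTPRC or PDGFRA bears on endothelial and FAP RNA only, since PTPRC removed no cell. Such RNA in cells without a UMI of these genes stays in, and the part of each type in the calls was not tested. Fewer cells of a type and less RNA per cell cannot be told apart in such sums.

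Genes outside the lists with the smallest p were also named. Higher in CNN1-positive cells was CST3, cystatin C, a secreted inhibitor of cysteine proteases, with 320, 586 and 923 CPM against 1212, 2156 and 4155 CPM (log2FC 1.88, SE 0.13). In the lower direction were TCIM (log2FC -2.77, SE 0.18), TFPI2, a secreted protease inhibitor (-2.43, SE 0.18), CPM, which encodes carboxypeptidase M (-3.94, SE 0.30), and MARCKS, an actin-binding substrate of protein kinase C (-3.24, SE 0.26). For none of these 5 genes, which were named for their small p, did the donors overlap. The same held for 120 of the 978 genes tested.

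Over single cells thinned to 2000 UMIs, the highest Spearman correlations with CNN1 over 408 cells were those of DSTN (0.66), TPM1 (0.62), MYH11 (0.62), TPM2 (0.62), ACTG2 (0.60), SORBS2 (0.60), MYL6 (0.59), ACTA2 (0.59), THBS1 (0.57) and RPLP1 (0.54). SORBS2, an adaptor of the actin cytoskeleton, had a log2FC of 3.55 (SE 0.53). At the other end stood RGS5 (-0.57), THBS4 (-0.56) and KCNJ8 (-0.54). These cells share 1 library and 10 donors, and the correlations are given as a description.

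Cells were also grouped by how many CNN1 UMIs they held, pooled over donors and with no test. Those with 0, 1, 2, 3 to 9 and 10 or more CNN1 UMIs numbered 379, 38, 16, 66 and 49, with median depths of 2311, 3918, 3295, 5639 and 7263 UMIs. Pooled over cells, MYH11 stood at 161, 793, 814, 1004 and 2912 unscaled CPM in these classes. DES stood at 62.7, 160, 373, 531 and 3254. Cells with exactly 1 CNN1 UMI, just inside the rule, lay between the sides for both genes; a class of middling cells and a mixture of cells of both kinds cannot be told apart in such pooled values.

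Most of the pericyte genes followed ran the opposite way. RGS5 stood at 2594, 933, 695, 359 and 80.5 unscaled CPM, and KCNJ8 at 987, 371, 33.9, 35.4 and 17.2. ABCC9 reached 2.87 in the top class, which is 1 UMI in 49 cells. NOTCH3, which is not plotted, did not fall along the classes, at 417, 582, 1119, 569 and 414. TAGLN changed least among the contractile genes shown, from 643 to 1615. With cells of 1 CNN1 UMI left out, 212 genes were higher and 254 lower.

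**Figure D4:**
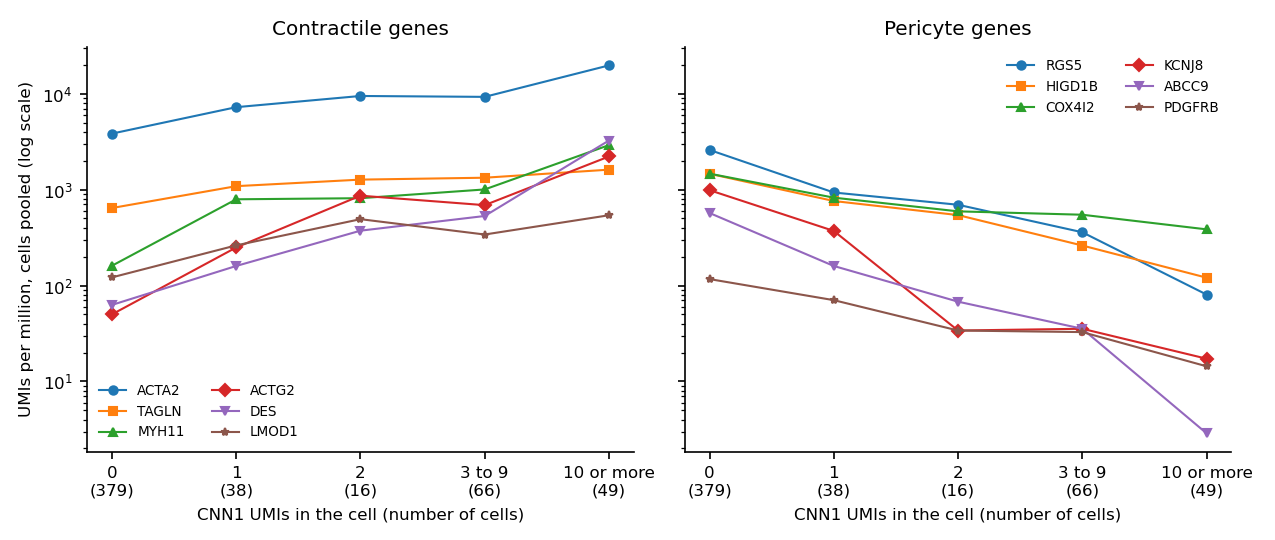
Unscaled CPM (y axis, log scale, cells pooled over donors, no error shown) of 6 contractile genes (left) and 6 pericyte genes (right) in SMMCs grouped by CNN1 UMIs (x axis, number of cells in parentheses). Contractile genes lie higher and pericyte genes lower in the class with 10 or more than in the class with 0, RGS5 going from 2594 to 80.5.

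After 72 h of culture, at passage 0, there were 365 SMMCs, of which 213 (58.4%) had a CNN1 UMI, while CNN1 itself stood at 313 unscaled CPM against 965 in muscle. CNN1-positive cells were again deeper, with a median of 17379 UMIs against 7320. In the 7 donors with at least 5 cells on both sides (donors 2, 4, 6, 7, 8, 9 and 10), 70 of 3491 genes were higher (2.01%) and 36 were lower (1.03%), together 3.04%. Without the donor block 7 were higher and 3 lower, so these calls depend on the pairing. Of 907 genes tested in both libraries, 441 were called in muscle and 49 at passage 0. Of the 441, 30 were called in the same direction at passage 0 and 5 in the opposite direction. Each timepoint had 1 deposited matrix, for passage 0 under labels of a run 1 and a run 2, and time in culture and library cannot be told apart. Depth differed too, since the sides in muscle had medians of 5366 and 2311 UMIs. A cut at 1 CNN1 UMI was therefore not the same cut in both libraries. Thinned or paired fits were not made at passage 0, and the part of depth in the differences between libraries was not tested.

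Of 31 contractile genes tested at passage 0, 12 rose, 0 fell and 19 passed no threshold, against a background of 2.01% of genes higher. Among the 12 was VCL (log2FC 0.60, SE 0.11, edgeR adjusted p = 0.00195), which had fallen in muscle. TAGLN had 40.2, 88.4 and 138 unscaled CPM in CNN1-negative and 58.1, 208 and 402 in CNN1-positive cells (log2FC 1.17, SE 0.17, edgeR adjusted p = 6.88e-05), and LMOD1 rose by 1.22 (SE 0.24, edgeR adjusted p = 0.00328). ACTA2 had 795, 941 and 1364 against 991, 4033 and 6983 and was higher in 7 of 7 donors, but did not pass the threshold (log2FC 1.72, SE 0.37, edgeR adjusted p = 0.0785). MYLK (log2FC 1.29, edgeR adjusted p = 0.0781) and DES (1.31, edgeR adjusted p = 0.31) did not pass it either. MYH11 was near the limit of detection, with 141 UMIs in CNN1-positive and 23 in CNN1-negative cells.

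Some pericyte genes were sparse on both sides at passage 0. RGS5 had 7 UMIs in CNN1-positive and 18 in CNN1-negative cells. That made 0, 10.2 and 23 unscaled CPM in CNN1-negative and 0, 0.629 and 14.2 in CNN1-positive cells, higher in CNN1-positive cells in 2 of 7 donors. KCNJ8 had 20.5, 37.5 and 72.3 unscaled CPM in CNN1-negative and 3.54, 19.5 and 72.9 in CNN1-positive cells. HIGD1B was not sparse, at 57.5, 204 and 316 against 99.5, 188 and 346, and did not pass the threshold (log2FC 0.09, SE 0.16). THBS4 had 56.2, 145 and 989 against 3.06, 46.5 and 63.8 and was lower in 7 of 7 donors, but did not pass the threshold (log2FC -2.64, SE 0.59, edgeR adjusted p = 0.0877). Of 19 pericyte genes tested 0 rose and 2 fell, beside 1.03% of all genes. Of 80 ribosomal protein genes 0 rose and 1 fell (median log2FC -0.09).

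The difference between the libraries was tested with an interaction term in 2274 genes, of which 18.6% were called. Of the 13 contractile and pericyte genes followed throughout, 12 could be tested and 4 were called. RGS5 was not called, with a difference in log2FC of 0.34 (edgeR adjusted p = 0.998) from few UMIs at passage 0. No SE is given for it, since its F statistic was too small to derive a usable one. The difference in log2FC, passage 0 minus muscle, was -3.02 for DES (SE 0.72, edgeR adjusted p = 0.00686). The difference was positive for 3 genes that fell in muscle: KCNJ8 (2.75, edgeR adjusted p = 0.00183), ABCC9 (2.49, edgeR adjusted p = 0.000185) and HIGD1B (2.53, edgeR adjusted p = 2.77e-06). For ACTA2 the difference was -0.19 (SE 0.40) and for TAGLN -0.02 (SE 0.27), and neither passed the threshold. Of 12 contractile genes named above 7 were called, all with a smaller log2FC at passage 0, among them DSTN (difference -2.60, SE 0.21), ACTG2 (-2.73, SE 0.66), TPM1 (-1.70, SE 0.18), TPM2 (-1.39, SE 0.25), MYL6 (-0.92, SE 0.12) and CSRP1 (-0.73, SE 0.19). Of all 73 named genes tested 48 were called, 22 with a higher and 26 with a lower log2FC at passage 0. Most of these genes had been named for their difference in muscle, so this count is a description.

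**Figure D5:**
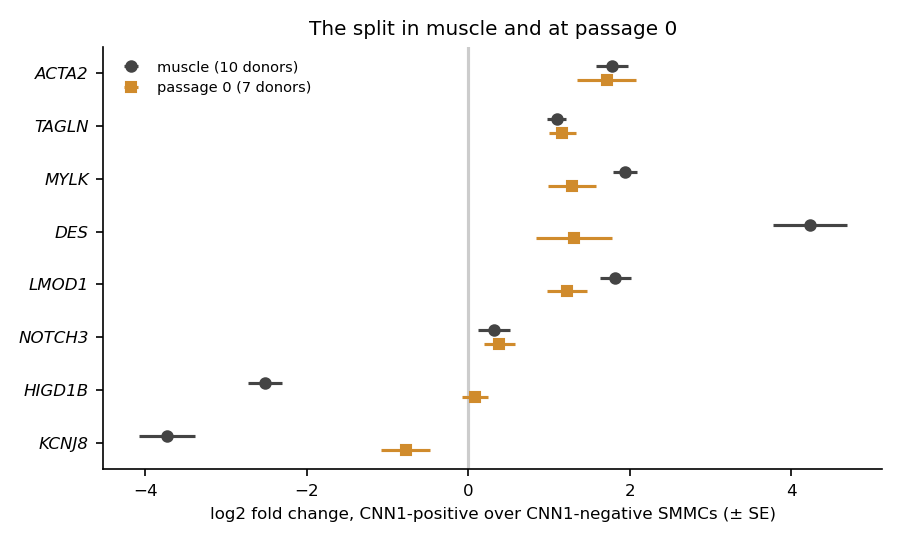
Log2 fold change between CNN1-positive and CNN1-negative SMMCs (x axis, bars are ± SE) for 8 genes that could be tested in both libraries, in muscle (dark circles, 10 donors) and at passage 0 (orange squares, 7 donors). ACTA2 and TAGLN lie close together in the libraries, while DES, HIGD1B and KCNJ8 are nearer 0 at passage 0.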

How the data were processed

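The authors counted UMIs with Cell Ranger 6.0.1 on build ARS-UCD1.2, and the deposited matrices hold raw counts per gene and barcode. Cells, donors (demuxlet) and cell types were taken from the deposited table of 36129 cells; 12 of its columns were not used. Doublets of 1 donor cannot be found by demuxlet, and a second caller was not applied. Counts of SMMCs were summed per donor and CNN1 side (at least 5 cells each; 37067 to 257730 UMIs per sum) and tested with edgeR 4.0.16 (quasi-likelihood F test, robust, TMM, filterByExpr) with donor as a block, since both sides come from the same animal. CNN1 was kept in library totals and left out of the genes tested. The SE of a log2FC was derived from it and its F statistic.

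Alternatives were DESeq2 1.42.0, no TMM, no filter, no donor block, at least 10 cells, each donor left out, a split at 2 UMIs, cells without markers of other types, and cells thinned or matched on UMIs. Pairing within a ratio of 1.2, the interaction term and the passage 0 alternatives were chosen after seeing the data. Members and gene lists were chosen with earlier results of these data known. Named genes were 13 contractile and pericyte genes, the 10 called genes with the smallest p in each direction, up to 6 called members of each list and the 10 genes most like CNN1; not all are described. The fits were tested on simulated data. Some members of the lists are not reported here.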

Additional observations from a re-analysis of the deposited data

Results flagged for a closer look

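In 7 of 12 named contractile and 8 of 13 named pericyte genes tested, most of them named for their values in muscle, the difference between CNN1-positive and CNN1-negative SMMCs itself differed between muscle and passage 0 (interaction term, edgeR, adjusted p below 0.05). The change in log2FC from muscle to passage 0 was -3.02 for DES, -2.73 for ACTG2, -2.60 for DSTN, -1.70 for TPM1, -1.39 for TPM2, -0.92 for MYL6 and -0.73 for CSRP1. Among pericyte genes it was 2.75 for KCNJ8, 2.67 for GJA4, 2.53 for HIGD1B, 2.49 for ABCC9, 1.63 for HEYL, 1.38 for BMP5, 1.26 for MFGE8 and 0.86 for GUCY1B1. Over all named genes tested 48 of 73 were called, beside 18.6% of 2274 genes. At passage 0 the 2 channel genes were sparse, with 94 and 59 UMIs of KCNJ8 and 51 and 41 of ABCC9 on the positive and negative sides. Cells at passage 0 were also deeper than in muscle, so the CNN1 cut was not the same in both libraries. The part of depth in these changes was not tested.

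In 75 sets of donor values, 2 had a donor that stood apart from the other 9, where chance gives about 1 in 20. The log2 difference of RPL27A was 1.17 in donor 2, beside 0.52 to 0.80 in the others. The log2 difference of TCIM was -4.22 in donor 6, beside -3.13 to -1.998 in the others. Neither donor was the lone source of its gene's direction, which was the same in 10 of 10 donors.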

How the results depend on the processing

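Beside 205 genes higher and 285 lower, the counts were 497 and 512 without the filter on low counts (13048 genes tested), 116 and 110 in cells thinned to 2000 UMIs (436 tested), 55 and 71 in cells paired within a ratio of 1.2 (505 tested), and 55 and 102 with an absolute log2FC above 1. Nearest-UMI matching gave 144 and 179 (668 tested) and left CNN1-positive cells 1.15 to 2.68 times deeper. Leaving out each donor gave 198 to 228 higher and 218 to 301 lower. Without the replicate block, which pairs the sides of 1 animal, 203 were higher and 275 lower. At passage 0, beside 70 and 36, no filter gave 172 higher, and 7 and 3 remained without the block. Fewer genes and cells entered the thinned and paired fits; how much of the loss is due to that was not tested. Of the 490 called genes, 300 could be tested in pairs within a ratio of 1.2; 120 kept their call and direction, and 5 changed sign. No named gene changed sign under any alternative in which it was tested; 10 of 51 lost their call in those pairs.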

Other observations

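Related genes often went separate ways between the sides; the families were chosen after their values were seen, and the difference between members was not tested. Beside ACTA2 and ACTG2, the cytoskeletal actin ACTB had a log2FC of 0.22 (SE 0.08) and ACTG1 one of -0.24 (SE 0.08). Beside MYH11, the non-muscle myosin heavy chain MYH9 fell (-0.75, SE 0.17), and beside MYL9 the light chain MYL12A fell (-0.30, SE 0.09). TPM4, a tropomyosin of many cell types, was at 0.01 (SE 0.16), and CFL1, the cofilin related to destrin, at -0.02 (SE 0.10). In cells paired within a ratio of 1.2 in UMIs ACTB, ACTG1, MYH9 and MYL12A lost their calls, with log2FC of 0.25 (SE 0.14), -0.22 (SE 0.14), -0.43 (SE 0.32) and -0.35 (SE 0.12), and in thinned cells ACTB and MYH9 did. In those pairs THBS1 and THBS4 stood at 2.53 and -2.04.

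Some pairs of paralogues were called in opposite directions. LIMS1 and LIMS2 encode the PINCH adaptors of integrin adhesions. LIMS1 had 326 CPM at the median of CNN1-negative and 55.3 at that of CNN1-positive donors (log2FC -1.99, SE 0.21), while LIMS2 had 117 and 356 (1.51, SE 0.16), and for both genes the donors of the sides did not overlap. NDUFA4 rose (1.86, SE 0.33), and NDUFA4L2, which had 603 and 7.73 CPM at the medians, fell (-4.08, SE 0.40). COX4I1, the ubiquitous isoform of cytochrome c oxidase subunit 4, had 876 and 944 CPM (0.09, SE 0.14) where COX4I2 fell. THBS1 rose where THBS4 fell. LIMS1, LIMS2, NDUFA4 and NDUFA4L2 were too sparse for the test in thinned or depth-paired cells.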
